A study of Mus musculus with 6 samples.

Results

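The glycogen synthesis and breakdown genes were 9 rows of the count table, taken by gene name and not by their values: Gyg, Gys2, Gbe1, Ugp2, Pygl, Phka2, Ppp1r3b, Ppp1r3c and Ppp1r3g, of 25904 genes in all. They were measured in livers of C57BL/6J mice that were heterozygous for Ptprd (Ptprd+/-, here Het, 3 libraries) or carried both copies (Ptprd+/+, here WT, 3 libraries). The product of Ptprd is a receptor-like tyrosine phosphatase of the cell surface, and the series title ties its impairment to metabolic disease of the liver. The sources used here do not give how the Ptprd allele was altered, nor the sex, age, feeding and hour of collection of these mice. Both genotypes share the strain and the tissue. The design counts 3 per genotype and no label names single animals; if the libraries were not from separate mice, p-values measure only technical spread.

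The liver stores glucose as glycogen after a meal and releases it between meals. Glycogenin primes the particle, UDP-glucose pyrophosphorylase makes the activated sugar, glycogen synthase lengthens the chains and the branching enzyme adds branch points. Phosphorylase removes glucose units from chain ends. Phosphorylase kinase switches phosphorylase on, and protein phosphatase 1 switches it off and glycogen synthase on. The Ppp1r3 proteins are the subunits that bring this phosphatase to glycogen. These enzymes are controlled to a large extent by phosphorylation and by metabolites, which messenger RNA does not show.

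No member passed the test of Het against WT, in which read counts were fitted with edgeR's quasi-likelihood test. The p-values were adjusted over all 14606 tested genes, and 0 of 9 members were called, as were 0% of all tested genes. The smallest edgeR adjusted p of any tested gene was 0.298, so the test did not call Ptprd itself. A member that was not called is therefore not shown to be unchanged. Gbe1, Ppp1r3b and Pygl were the 3 members with an unadjusted p under 0.05, a threshold that 7.15% of tested genes passed, and all 3 were lower in Het, with fitted levels 1.43-fold, 1.51-fold and 1.22-fold lower. Gys2 was the one member with a higher fitted level in Het, 1.30-fold. Gyg, Phka2 and Ugp2 had fitted log2 fold changes between -0.07 and -0.01, while Ppp1r3c and Ppp1r3g differed so much between libraries of 1 genotype that their intervals ran from more than 2-fold lower to above the WT level.

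The start sites of 3 members are shown because the results below return to them. Among the 7 members with a RefSeq promoter window, Ppp1r3c and Gyg are those whose window holds an E-box. An E-box is the element that the clock activators and some glucose-responsive factors bind. Pygl is the member whose genotypes did not overlap. Each window runs from 250 bases before to 50 bases after the start (RefSeq, GRCm38.p6, the assembly of mm10), written 5′ to 3′ on the gene's own strand, with matched motifs in capitals. They lie at chr19:36736555-36736854 for Ppp1r3c, chr3:20155067-20155366 for Gyg and chr12:70227634-70227933 for Pygl, all on the minus strand.
Ppp1r3c: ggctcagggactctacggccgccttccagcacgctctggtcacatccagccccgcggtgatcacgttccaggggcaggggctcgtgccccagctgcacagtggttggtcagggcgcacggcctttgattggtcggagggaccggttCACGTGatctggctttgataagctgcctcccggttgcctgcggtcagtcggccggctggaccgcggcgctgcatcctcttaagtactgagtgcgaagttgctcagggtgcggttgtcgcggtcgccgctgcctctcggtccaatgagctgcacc
Gyg: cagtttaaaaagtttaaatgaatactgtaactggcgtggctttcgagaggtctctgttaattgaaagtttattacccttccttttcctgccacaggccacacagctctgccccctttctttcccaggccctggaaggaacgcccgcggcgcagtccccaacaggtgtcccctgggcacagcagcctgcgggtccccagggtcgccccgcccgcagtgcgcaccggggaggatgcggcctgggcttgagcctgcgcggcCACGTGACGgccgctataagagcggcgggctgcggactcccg
Pygl: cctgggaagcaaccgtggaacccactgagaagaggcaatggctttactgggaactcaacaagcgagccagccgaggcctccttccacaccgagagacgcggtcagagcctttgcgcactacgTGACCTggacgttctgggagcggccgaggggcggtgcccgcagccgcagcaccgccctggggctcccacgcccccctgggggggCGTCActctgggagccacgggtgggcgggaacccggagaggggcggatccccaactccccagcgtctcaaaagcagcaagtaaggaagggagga
In Ppp1r3c the capitals mark CACGTG, which begins 104 bases before the start. In Gyg they mark CACGTG beginning at base 9 after the start and an overlapping TGACG, the core of the cAMP response element. In Pygl they mark, on the reverse strand, AGGTCA (a half-site of ROR and REV-ERB elements, printed as TGACCT) and TGACG (printed as CGTCA). Only the letters of the half-site were searched, not the bases beside it, so the match does not show a full ROR or REV-ERB element. Of 32851 RefSeq windows of this length, 7.15% held CACGTG, 20.81% TGACG and 16.26% AGGTCA on either strand. In all, 7 of the 9 members had windows, 8 windows with 2 for Ugp2. Gys2 and Ppp1r3b had no window, so no motif was searched at their start sites. Ppp1r3g held TGACG, and no window of a member held TGTTTAC (a FOXO site) or TATAAA (the TATA box). A match describes letters and does not show binding.

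Total counts were 37924266 to 72954187 per library. All 9 members passed the filter on low counts, with 14 to 122 counts per library for Ppp1r3g, 167 to 340 for Gyg and 898 to 38850 for the other 7. Values are CPM, read counts relative to library size, after TMM scaling, the trimmed mean of M values in edgeR, and errors are SD with n = 3 per genotype. Ptprd itself had 54.1, 78.1 and 63.4 CPM in Het 1, 2 and 3, against 128, 127 and 132 CPM in WT 1, 2 and 3, so each library matched its label. Its log2 fold change of Het over WT was -0.99 (SE 0.14), with an adjusted p of 0.298 by edgeR and 2.01e-06 by DESeq2. Hepatocyte markers such as Alb and Ttr summed to 147867 to 179966 CPM in Het and 125470 to 149146 CPM in WT, which fits the tissue label; in whole liver, fewer cells of a type and less RNA per cell cannot be told apart. Het 2 and Het 3 stood apart from the other 4 libraries in clock genes: the clock score, the mean log2 CPM of 6 genes including Dbp and Nr1d1 minus that of 4 genes including Arntl and Clock, was 4.58 and 4.94 in them, against 0.15 in Het 1 and 0.58 to 1.80 in WT.

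**Figure D1:**
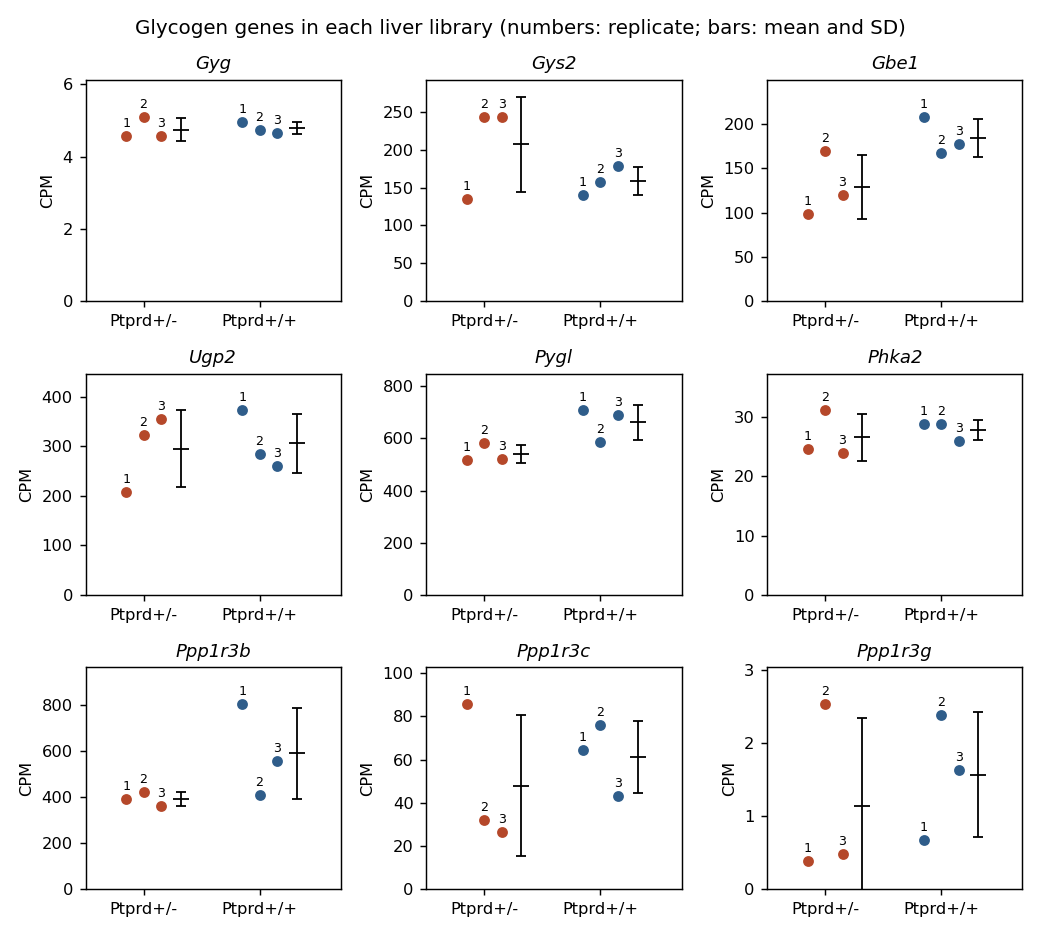
CPM (y axis, from 0, 1 scale per gene) of the 9 glycogen genes in each Ptprd+/- library (left, red) and each Ptprd+/+ library (right, blue); numbers give the replicate, and the black mark and bar give the mean and SD of 3 libraries (the lower end of the Ppp1r3g bar in Ptprd+/- runs below 0 and is not drawn). Pygl is the gene whose groups do not overlap, and Ppp1r3c and Ppp1r3g spread most within a genotype.

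The genes of chain initiation and of UDP-glucose supply had the smallest fitted differences with Phka2. Gyg (ENSMUSG00000019528, chromosome 3, 20122084 to 20155317 in mm10), glycogenin, had 4.58, 5.11 and 4.56 CPM in Het, against 4.97, 4.73 and 4.66 CPM in WT. The 6 libraries covered a 1.12-fold range, and the genotypes overlapped. Its log2 fold change of Het over WT was -0.01 (SE 0.14, 95% interval -0.33 to 0.31, edgeR adjusted p = 0.990). The SD of its log2 CPM over the 6 libraries was 0.07, smaller than in all but 2.66% of tested genes. Ugp2 (ENSMUSG00000001891, chromosome 11, 21321138 to 21371201), UDP-glucose pyrophosphorylase, had 208, 323 and 355 CPM in Het, against 372, 284 and 260.3 CPM in WT. Both the lowest library, Het 1, and the highest, WT 1, stood at the edge of a wide overlap. Its log2 fold change was -0.05 (SE 0.21, 95% interval -0.54 to 0.44, edgeR adjusted p = 0.974), and it was 0.14 without Het 1 and 0.12 without WT 1.

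The chain-building enzymes differed from each other. Gys2 (ENSMUSG00000030244, chromosome 6, 142422613 to 142473109), the liver glycogen synthase, had 135, 243 and 243 CPM in Het, against 140, 157 and 178 CPM in WT. Het 2 and Het 3 lay above every WT library and Het 1 below every one, so the genotypes overlapped and the Het SD of 62.6 CPM exceeded the WT SD of 19.1 CPM. The mean was 207 CPM in Het and 159 CPM in WT, a log2 fold change of 0.38 (SE 0.22, 95% interval -0.12 to 0.89, edgeR adjusted p = 0.729). Het 2 and Het 3 are the libraries with the high clock score: the log2 fold change was -0.23 without both of them and -0.02 when the fit took the clock score as a further term, so the direction rested on these libraries. Gbe1 (ENSMUSG00000022707, chromosome 16, 70313949 to 70569716), the glycogen branching enzyme, had 98.6, 169 and 119 CPM in Het, against 208, 167 and 177 CPM in WT. Het 1 and Het 3 lay below all WT libraries, and Het 2 lay just above WT 2. The mean was 129 ± 36.1 CPM in Het and 184 ± 21.4 CPM in WT (SD, n = 3 each). The log2 fold change was -0.51 (SE 0.19, 95% interval -0.96 to -0.07), with an unadjusted p of 0.0288 and an edgeR adjusted p of 0.685, and it was -0.36 without Het 1 and -0.75 without Het 2.

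On the breakdown side Pygl was lower in each Het library than in any WT library, by a small margin. Pygl (ENSMUSG00000021069, chromosome 12, 70190811 to 70231488), the liver glycogen phosphorylase, had 518, 581 and 521 CPM in Het, against 707, 586 and 689 CPM in WT. The highest Het library, Het 2, lay close below the lowest WT library, WT 2. The mean was 540.2 ± 35.3 CPM in Het and 661 ± 65.3 CPM in WT (SD, n = 3 each). The log2 fold change was -0.29 (SE 0.12, 95% interval -0.56 to -0.02), with an unadjusted p of 0.038 and an edgeR adjusted p of 0.694. Its 15 alternatives kept the direction, from -0.36 to -0.24, with adjusted p between 0.373 and 0.955. Phka2 (ENSMUSG00000031295, chromosome X, 160502166 to 160598878), the liver form of the alpha subunit of phosphorylase kinase, had 24.6, 31.1 and 23.9 CPM in Het, against 28.8, 28.8 and 25.9 CPM in WT. The WT libraries lay inside the range of the Het libraries. Its log2 fold change was -0.07 (SE 0.12, 95% interval -0.36 to 0.22, edgeR adjusted p = 0.914).

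The 3 phosphatase-targeting subunits varied more between libraries than most genes, and so did Gbe1, Gys2 and Ugp2. The SD of log2 CPM of these last 3 was above that of 80.89%, 78.54% and 70.03% of tested genes. Ppp1r3b (ENSMUSG00000046794, chromosome 8, 35375739 to 35388139), the main glycogen-targeting subunit of liver, had 393, 420.5 and 362 CPM in Het, against 804, 409.9 and 555 CPM in WT. The Het libraries were close together, and WT 2 lay between Het 1 and Het 2 while WT 1 was far above all others. The log2 fold change was -0.59 (SE 0.22, 95% interval -1.10 to -0.08), with an unadjusted p of 0.0288 and an edgeR adjusted p of 0.685. Without WT 1 it was -0.30, so its size depended on that library.

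Ppp1r3c (ENSMUSG00000067279, chromosome 19, 36731737 to 36736653), which encodes the subunit known as protein targeting to glycogen, had 85.7, 31.8 and 26.2 CPM in Het, against 64.5, 76.0 and 43.0 CPM in WT. Het 1 was the highest of the 6 libraries, and Het 2 and Het 3 were the lowest pair, a 3.26-fold range. The log2 fold change was -0.36 (SE 0.43, 95% interval -1.33 to 0.62, edgeR adjusted p = 0.866). It was 0.49 without Het 2 and Het 3, 0.01 when the fit held the clock score, and -1.08 without Het 1. Ppp1r3g (ENSMUSG00000050423, chromosome 13, 35958839 to 35970388), a glycogen-targeting subunit linked to feeding in mouse liver, had 0.384, 2.53 and 0.483 CPM in Het, against 0.673, 2.38 and 1.63 CPM in WT. Het 2 and WT 2 were alike and highest, and Het 1 and Het 3 were lowest. The exact Poisson 95% interval, which covers counting error only, was 0.210 to 0.644 CPM in Het 1 and 2.10 to 3.03 CPM in Het 2, so libraries of 1 genotype differed beyond counting error. The log2 fold change was -0.47 (SE 0.72, 95% interval -2.14 to 1.19, edgeR adjusted p = 0.897), and it was -1.82 without Het 2 and -0.01 without WT 2. The SD of log2 CPM over the 6 libraries was 1.15 for Ppp1r3g, 0.70 for Ppp1r3c and 0.43 for Ppp1r3b, above 99.32%, 95.58% and 83.44% of tested genes, where the median gene had 0.22.

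**Figure D2:**
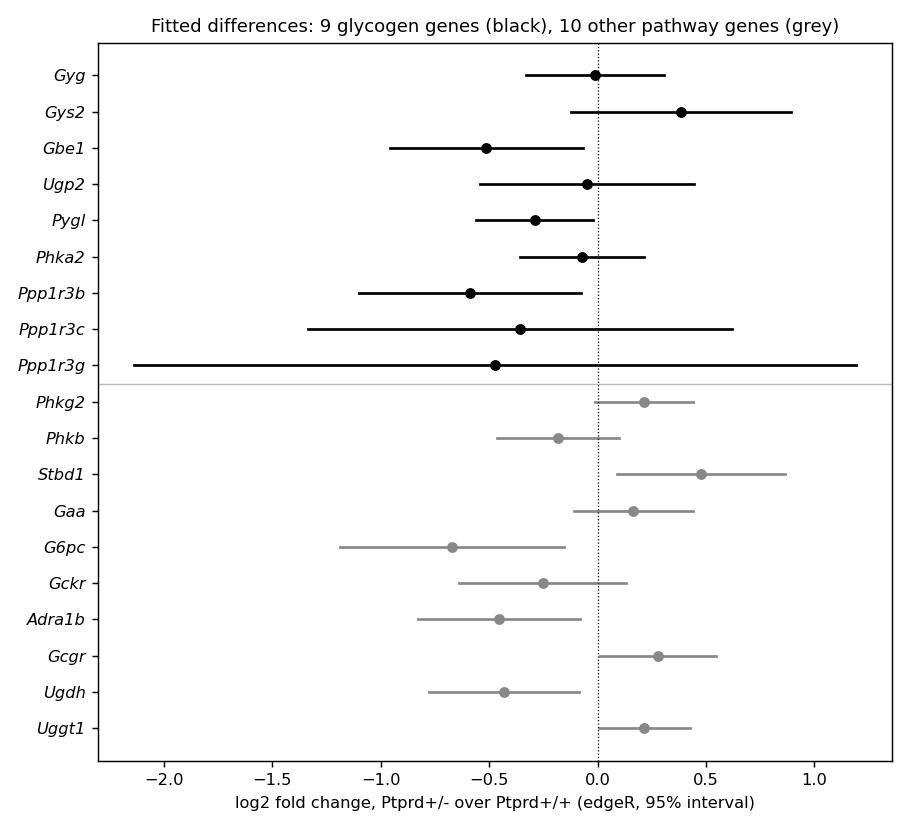
Fitted log2 fold change of Ptprd+/- over Ptprd+/+ (x axis) with its 95% interval for the 9 glycogen genes (black, upper block) and 10 other genes of the pathway (grey, lower block); the dotted line marks no difference. The intervals of Gbe1, Pygl and Ppp1r3b lie below 0 before adjustment over all genes, and that of Ppp1r3g is the widest of the 19. Of the grey genes, the intervals of G6pc, Adra1b and Ugdh also lie below 0, and those of Stbd1, Gcgr and Uggt1 above 0.

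Counted over the 9 members, 0 passed an edgeR adjusted p of 0.05, as did 0% of all tested genes, of which 1045 had an unadjusted p under 0.05. The 3 members with an unadjusted p under 0.05 compare with 7.15% of all tested genes, and with 3.77% that were lower in Het. Pygl was the 1 member whose genotypes did not overlap, against 13.9% of tested genes in either direction and 6.72% with lower Het libraries. Limma-voom and DESeq2 also called 0 of the 9 at an adjusted p of 0.05, where they called 0% and 0.452% of tested genes (0 and 66 genes), and both gave the same 3 members an unadjusted p under 0.05, against 7.33% of tested genes by limma-voom and 6.79% by DESeq2 (0.0358, 0.0222 and 0.039 for Pygl, Gbe1 and Ppp1r3b by limma-voom; 0.0259, 0.0118 and 0.00817 by DESeq2). All 3 tools used the same 6 libraries. By edgeR, members with an unadjusted p under 0.05 numbered 2, 4 and 0 without Het 1, 2 and 3. They numbered 0, 3 and 2 without WT 1, 2 and 3. The 2 without Het 1 were Gys2, higher in Het, and Ppp1r3c, lower in Het, and not Gbe1, Ppp1r3b or Pygl. The 4 without Het 2 were Gbe1, Ppp1r3b, Pygl and Ppp1r3g, all lower in Het. Those without WT 2 or WT 3 were all among Gbe1, Ppp1r3b and Pygl. Of all tested genes, 686 of 14851 (without WT 2) to 1428 of 14881 (without Het 2) passed this threshold. The median log2 fold change was -0.29 over the members, 8 lower and 1 higher, against 49.2% of tested genes higher, and 0.00 over all tested genes. The members' median was -0.10 without Het 1, -0.08 without Het 3 and -0.09 without WT 2, and without Het 1, Het 3 or WT 1 the split was 6 lower and 3 higher. Library medians did not separate the genotypes: the members' median of centred log2 CPM was -0.26, 0.13 and -0.19 in Het 1, 2 and 3 and 0.25, -0.01 and 0.01 in WT 1, 2 and 3.

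The balance of synthase to phosphorylase was set as a ratio of read counts within each library, which no scaling between libraries can change. Gys2 had 0.260, 0.419 and 0.465 counts per Pygl count in Het, against 0.198, 0.269 and 0.259 in WT. Het 2 and Het 3 were above all WT libraries and Het 1 lay between WT 3 and WT 2. On the log2 scale the ratio averaged -1.43 ± 0.45 in Het and -2.06 ± 0.24 in WT (SD, n = 3 each), a difference of 0.63 that ran from 0.46 to 0.88 when 1 library was left out. The ratio of Gys2 to Gbe1, 1 of 5 ratios computed, chosen after its values were seen and so given with no test, was 1.37, 1.44 and 2.03 in Het, against 0.674, 0.944 and 1.01 in WT. Every Het library was above every WT library in this ratio, which sets the 1 member fitted higher in Het against a member fitted lower. No share of ratios without overlap was computed. Among single genes, 13.9% of those tested had genotypes that did not overlap.

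Clock and feeding genes differed between libraries alongside several members. Dbp, a clock output factor, had 13.5, 129 and 122 CPM in Het 1, 2 and 3, against 18.9, 29.6 and 14.4 CPM in WT. Gys2 was highest, and Ppp1r3c lowest, in the 2 libraries with high Dbp, Het 2 and Het 3. Gyg, whose window also holds CACGTG, had its highest and its lowest level in these same 2 libraries, 1.12-fold apart. Of 6 genes known to be high in the fed liver, among them Fasn and Acly, the median of centred log2 CPM was -1.003, 0.27 and -0.09 in Het 1, 2 and 3, against 0.79, 0.06 and -0.10 in WT 1, 2 and 3. In 8 genes known to be high in the fasted liver, such as Pck1, the same measure was -0.02, 0.28 and -0.30 in Het and -0.13, -0.11 and 0.20 in WT. Gbe1 and Ugp2 were lowest in Het 1 and highest in WT 1, the lowest and the highest library of the fed list, and Ppp1r3b was highest in WT 1. Without Het 2 and Het 3, where 1 Het library was set against 3 WT libraries, the log2 fold change was -0.90 for Gbe1, -0.58 for Ppp1r3b, -0.35 for Pygl, -0.55 for Ugp2, -0.17 for Phka2, -0.06 for Gyg and -2.02 for Ppp1r3g. With the clock score in the fit of all 6 libraries the values for Gbe1, Ppp1r3b and Pygl were -0.75, -0.54 and -0.30. Those for Ugp2, Phka2, Gyg and Ppp1r3g were -0.39, -0.14, -0.04 and -1.49. In that edgeR fit no member passed the adjusted p. Gbe1, 1 of the 9, had an unadjusted p under 0.05, as did 2081 of all 14606 tested genes. The part of clock phase and feeding in the members' values was not tested beyond the fits named above, and 2 of the 3 Het libraries have a high clock score, so clock phase and genotype cannot be fully told apart.

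**Figure D3:**
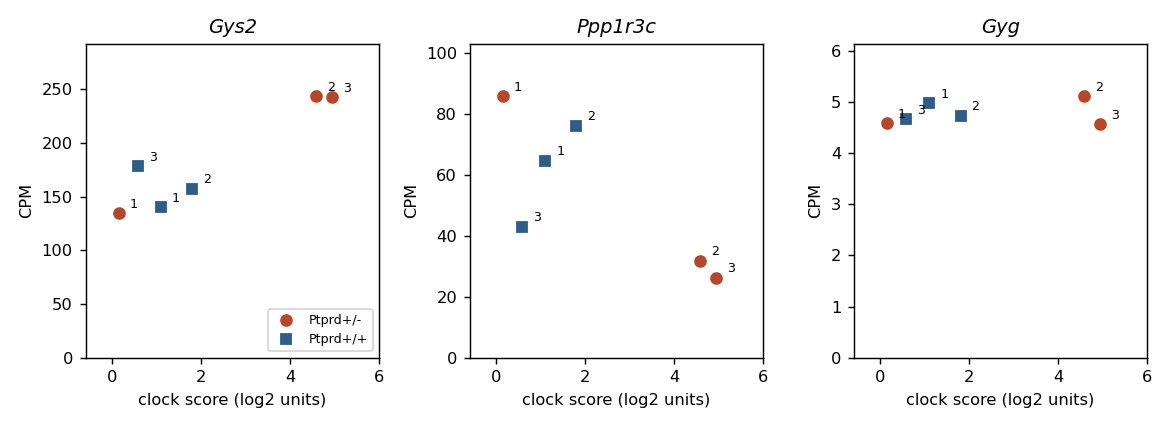
CPM (y axis, from 0) of Gys2, Ppp1r3c and Gyg against the clock score of the library (x axis, log2 units), with Ptprd+/- libraries as red circles and Ptprd+/+ libraries as blue squares, numbered by replicate. Ptprd+/- 2 and 3, at scores of 4.58 and 4.94, have the highest Gys2 and the lowest Ppp1r3c levels, and Gyg stays between 4.56 and 5.11 CPM.

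The patterns most like the 2 members that varied most were sought among 11377 tested genes. These had a mean of at least 1 CPM and no Gm or Rik name. The distance was the root mean square difference of centred log2 CPM over the 6 libraries. Nearest to Ppp1r3c were Arl4d, a small GTPase gene, at 0.22 log2 units, Pnrc1, a nuclear receptor coactivator gene, at 0.23, and Tnfaip2 at 0.26. Arl4d had 22.1, 12.2 and 7.73 CPM in Het, against 20.1, 18.4 and 11.2 CPM in WT. Nearest to Ppp1r3g were Blnk, a B cell adaptor gene, at 0.48, Zfp871, a zinc finger gene, at 0.52 and Catsperd at 0.54. Blnk had 1.54, 4.17 and 1.18 CPM in Het, against 2.13, 3.83 and 2.73 CPM in WT, so it shared the high values of Het 2 and WT 2.

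Levels can be set between genes only per length. Per kilobase of union exon (GENCODE M21), averaged over the 6 libraries, Ugp2 stood at 97.9, Pygl at 87.1, Ppp1r3b at 79.0 and Gys2 at 68.8 CPM per kb, and the ranges of these 4 over the libraries overlapped. Gbe1 followed at 29.2 and Ppp1r3c at 20.01 CPM per kb, again with overlapping ranges and with every library below the lowest of Gys2. Phka2 at 4.48, Gyg at 2.03 and Ppp1r3g at 0.501 CPM per kb did not overlap with each other or with the genes above them. With the median transcript length of the deposited table in place of union exons, Pygl and Ugp2 changed places, as did Gys2 and Ppp1r3b, and the order of the other 5 was kept. The forms known from other tissues were below their liver counterparts. Per kilobase of union exon, Gys1, the synthase of muscle, had 0.767 CPM per kb, Pygb and Pygm, the brain and muscle phosphorylases, 1.52 and 0.434, and Ppp1r3a, the muscle targeting subunit, had 0 to 5 counts in each library. Per kilobase of median transcript length Gys1 stood at 3.86 and Pygb at 9.27 CPM per kb, both above Gyg at 2.84, so their place relative to Gyg depends on the length used.

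**Figure D4:**
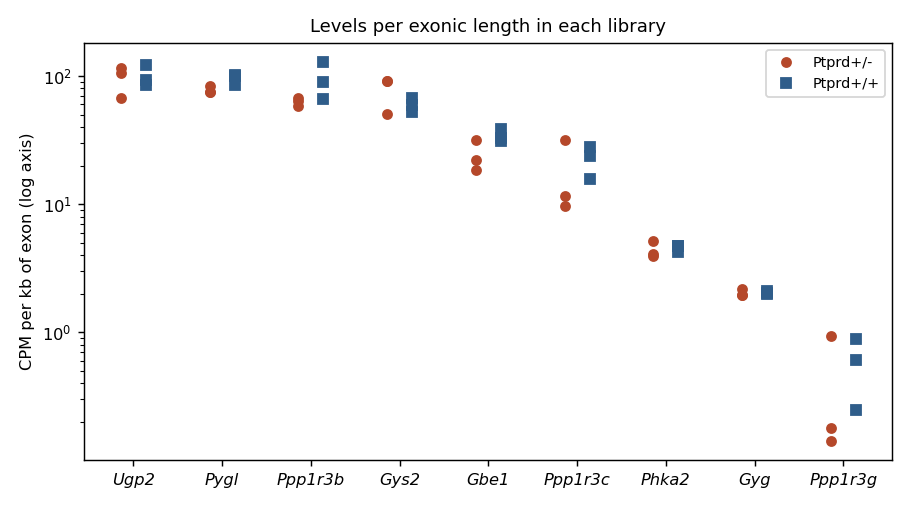
CPM per kilobase of union exon (y axis, log scale) of the 9 glycogen genes, ordered by their mean, in each Ptprd+/- library (red circles) and each Ptprd+/+ library (blue squares). Ugp2, Pygl, Ppp1r3b and Gys2 overlap at the top, and Ppp1r3g is lowest at 0.501 CPM per kb on average.

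Other genes of the pathway were taken from 5 lists of 56 genes, of which 52 were tested. None passed the edgeR adjusted p of 0.05, 3 of those with unadjusted p under 0.05 were higher and 3 lower in Het (3.39% and 3.77% of all tested genes), and the median log2 fold change was -0.02. The genotypes did not overlap in 3 genes with higher and 4 with lower Het libraries, of the 52, against 7.15% and 6.72% of all tested genes. Of 8 tested isoforms and subunits, 4 were higher and 4 lower, and the smallest p values were those of Phkg2 and Phkb, the liver catalytic and the shared beta subunit of phosphorylase kinase, with log2 fold changes of 0.21 (SE 0.10, adjusted p = 0.698) and -0.18 (SE 0.12, adjusted p = 0.750). Without Het 2 and Het 3 these were 0.33 and -0.30; Phkb was at -0.29 without Het 2 and -0.12 without WT 2. Phkg2 had 26.4, 23.7 and 23.4 CPM in Het, against 20.7, 20.3 and 22.4 CPM in WT, with no overlap. Of 5 genes of debranching, lysosomal breakdown and quality control, 3 were higher. Stbd1, which tethers glycogen to membranes, had 105, 97.9 and 129 CPM in Het, against 73.5, 67.1 and 98.6 CPM in WT, a log2 fold change of 0.48 (SE 0.17, adjusted p = 0.685) in which Het 2 and WT 3 overlapped. Gaa, the lysosomal alpha-glucosidase, had a log2 fold change of 0.17 (SE 0.12, adjusted p = 0.766), and it was 0.06 without Het 1, 0.10 without WT 2 and 0.35 without Het 2 and Het 3.

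Of 12 genes that bring glucose into and out of the phosphate pool, 4 were higher and 8 lower. G6pc, the enzyme that removes phosphate from glucose 6-phosphate so that glucose can leave the cell, had 427, 316 and 217 CPM in Het, against 507, 563 and 458 CPM in WT. The genotypes did not overlap, with a log2 fold change of -0.67 (SE 0.23, unadjusted p 0.0173, edgeR adjusted p = 0.685). It was -0.25 without Het 2 and Het 3. Gckr, the glucokinase regulatory protein, had a log2 fold change of -0.25 (SE 0.17, adjusted p = 0.750), and it was -0.03 without WT 1. Of 21 tested kinases, phosphatases and receptors, 8 were higher and 13 lower. The receptors for the hormones that start glycogen breakdown differed in direction. Adra1b, the alpha-1B adrenergic receptor, had 72.0, 59.9 and 52.3 CPM in Het, against 99.1, 84.1 and 69.1 CPM in WT (log2 fold change -0.45, SE 0.16, adjusted p = 0.685; -0.22 without Het 2 and Het 3), and Gcgr, the glucagon receptor, had 314, 278 and 283 CPM in Het, against 212, 243 and 266 CPM in WT (log2 fold change 0.28, SE 0.12, adjusted p = 0.694). Het 1 and WT 3 overlapped for Adra1b, and the genotypes did not overlap for Gcgr.

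UDP-glucose also serves other pathways, and 3 of 6 tested genes of its other users and makers were higher. Ugdh, which turns it into UDP-glucuronate for conjugation, had 93.3, 88.3 and 84.1 CPM in Het, against 148, 100.5 and 109 CPM in WT (log2 fold change -0.43, SE 0.15, adjusted p = 0.685; -0.24 without WT 1). Uggt1, which glucosylates misfolded glycoproteins in the endoplasmic reticulum, had 89.0, 97.1 and 91.5 CPM in Het, against 81.7, 82.3 and 75.1 CPM in WT (log2 fold change 0.22, SE 0.09, adjusted p = 0.694). In both genes all Het libraries lay on 1 side of all WT libraries.

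The summed levels of markers of non-hepatocyte types overlapped between the genotypes, list by list. The 8 Kupffer cell and macrophage markers summed to 328 to 607 CPM in Het and 444 to 701 CPM in WT, with 7 of 8 lower in Het. The genotypes did not overlap in 1 of these 8, against 13.9% of all tested genes. That 1 was Marco, a macrophage scavenger receptor, at 37.1, 10.9 and 28.1 CPM in Het, against 93.5, 69.9 and 53.8 CPM in WT (log2 fold change -1.52, SE 0.40, unadjusted p 0.00517, edgeR adjusted p = 0.649). The 6 sinusoidal endothelial markers summed to 220.0 to 291 CPM in Het and 239 to 281 CPM in WT, with 4 of 6 lower. Stellate cell markers summed to 275 to 298 CPM in Het and 287 to 340.1 CPM in WT, cholangiocyte markers to 45.1 to 54.8 and 47.6 to 61.9, erythroid markers to 110.2 to 165 and 99.5 to 269, lymphocyte markers to 3.07 to 5.13 and 4.04 to 6.66, and neutrophil and monocyte markers to 2.15 to 5.46 and 3.28 to 3.77. Muscle markers summed to 0.725 to 1.15 CPM in Het and 0.860 to 1.22 CPM in WT, and adipocyte markers to 1.32 to 2.96 and 0.840 to 2.20 CPM. Of the muscle markers Acta1, Ckm and Tnnt3 had at most 2 counts in any library, and of the adipocyte markers Adipoq had at most 4 and Plin1 at most 1. Pericentral hepatocyte markers summed to 10848 to 12209 CPM in Het and 7757 to 10574 CPM in WT, a sum held mostly by Cyp2e1, which averaged 7606 CPM over the 6 libraries. None of the 8 pericentral markers was without overlap between the genotypes, and the list's median of centred log2 CPM was -0.07, 0.02 and 0.21 in Het and -0.11, -0.12 and 0.05 in WT. Of these markers 6 were higher and 2 lower in Het. Axin2, 1 of the 2 lower, had a log2 fold change of -0.46 (SE 0.18, unadjusted p 0.0294, edgeR adjusted p = 0.685). Marco, Axin2 and Cyp2e1 were singled out after their values were seen. Periportal markers summed to 5899.7 to 8932 CPM in Het and 6345 to 8707 CPM in WT. The part of these cell types and zones in the members' values was not tested.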

How the data were processed

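Polyadenylated liver RNA was sequenced from strand-marking libraries. Per the submitters' processing notes, the build was mm10 and the tools included STAR 2.5.3a and HTSeq 0.6.1p1. The sources used here do not give the annotation release, the strand setting or the rule for multi-mapping reads. The authors deposited raw counts per gene, and, per the file headers, a median transcript length per gene (taken as bases). Their normalized columns (decimal marks lost) and their table of differential expression were not used.

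Genes passing edgeR's filterByExpr (14606, holding 99.955% of counts) were fitted with edgeR 4.0.16 (R 4.3.3): trimmed mean of M values scaling, quasi-likelihood test, two-sided, genotype as the only term, Benjamini-Hochberg adjustment over all tested genes, threshold 0.05. Standard errors come from the F statistic, and 95% intervals from its degrees of freedom. Log2 CPM for spread, scores and pattern distances used a prior count of 2. DESeq2 1.42.0 and limma-voom 3.58.1 were alternatives, with other scalings and filters, a replicate block, a clock score covariate and left-out libraries. The fits were tested on simulated data. With 3 against 3, an exact two-sided permutation test of 1 gene cannot give a p below 0.1.

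GENCODE M21 (GRCm38) gave the members the same coordinates as the deposited table except for the lower coordinate of Ppp1r3c. Of genes overlapping members, Gm12043 shares 78 exonic bases with Ugp2 on the opposite strand and had 1 count in all. Gm15243 shares 115 with Phka2 on the opposite strand and was not in the table, so without a stated strand setting its reads could not be told apart from those of Phka2.

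The named genes were all 9 members, the 2 with the smallest unadjusted p in each pathway list and any called gene, the 3 nearest patterns of the 2 most variable members, Ptprd, and defining genes of the marker and state lists. Members, lists and tests were chosen with earlier results of these data known.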

Additional observations from a re-analysis of the deposited data

How the results depend on the processing

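The count of genes called over all tested genes, 0 in the edgeR fit, was 66 with DESeq2 (34 higher, 32 lower) and 73 without a filter on low counts (27 higher, 46 lower), and 0 to 1 when 1 library was left out. No member was called under any of the 15 alternatives. Of 135 member values under alternatives, 125 kept their direction and 10 reversed. With the clock score as a covariate Gys2 was at -0.0189 and Ppp1r3c at 0.0144, and without Het 2 and Het 3 together they were at -0.23 and 0.49. That last fit takes the spread of the single remaining Het library to equal that of the WT libraries; the cause was not tested. Leaving out 1 library gave log2 fold changes of -0.20 to 0.14 for Ugp2, -0.0626 to 0.0192 for Gyg and -0.20 to 0.0012 for Phka2, of which the positive ones were reversals. The same gave 0.25 to 0.61 for Gys2, -0.36 to -0.24 for Pygl, -0.75 to -0.36 for Gbe1, -0.79 to -0.30 for Ppp1r3b, -1.08 to -0.06 for Ppp1r3c and -1.82 to -0.01 for Ppp1r3g. The members' median was -0.26 to -0.0763 with 1 library left out, and -0.35 to -0.28 otherwise. Members without overlap numbered 1 to 6 with 1 library left out (1 without Het 3, 6 without Het 2), where 21.1 to 27.8% of tested genes did not overlap. Without Het 2 and Het 3 together they numbered 9, against 63.1% of tested genes; with fewer libraries, ranges separate more easily. The count without overlap has no value under limma-voom, the replicate block or the clock covariate, which are changes of the model only. The difference in the Gys2 to Pygl log2 ratio was 0.46 to 0.88. With the replicate number as a block the members' median was -0.29 and 0 genes were called. Of the members, 2 had an unadjusted edgeR p under 0.05, as did 1103 of all 14606 tested genes. The deviations of same-numbered libraries had correlations of -0.07, 0.12 and 0.15, and not every library correlated best with its own number. With 3 libraries per genotype such correlations constrain each other, so they cannot decide whether the numbers pair the libraries. Ppp1r3g and Gyg rest on the fewest counts, 14 to 122 and 167 to 340 per library, so counting error is largest for them; the Ppp1r3g libraries also differed beyond it.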
